A study of Homo sapiens with 5 samples.

Results

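The genes described are those of the hyaluronan and lectican matrix: the core proteins of the lecticans versican (VCAN), aggrecan (ACAN), neurocan (NCAN) and brevican (BCAN), the hyaluronan synthases HAS1, HAS2 and HAS3, the link proteins HAPLN1 and HAPLN3, and the hyaluronan receptor CD44. They were chosen by gene symbol, and all 10 were present among the 27139 genes listed in the deposited exon count and FPKM tables. Polyadenylated RNA had been sequenced from H1, an established human embryonic stem cell line of wild-type genotype, on day 30 of a cardiac differentiation. In 3 libraries the cells had received a YAP inhibitor together with Activin, with a labelled treatment time of 24 h. In the other 2 libraries, from the protocol called GiWi, they had received a GSK3 inhibitor and an inhibitor of Wnt/β-catenin signalling, with a labelled treatment time of 48 h, so the agents and the treatment time differed together. No group was left untreated, and every library came from the same line.

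Hyaluronan is a long, unsulfated polysaccharide that synthases at the plasma membrane extrude directly into the extracellular space. Lecticans are large proteoglycans that bind hyaluronan at their amino-terminal end, carry chondroitin sulfate chains along their middle part and bind other matrix proteins through a lectin-like domain at their carboxyl-terminal end. Link proteins hold the lectican on the hyaluronan strand, and CD44 tethers hyaluronan to the cell surface. In the embryonic heart, hyaluronan and versican fill the cardiac jelly between muscle and endocardium, and mice without Has2 or Vcan form no endocardial cushions. Aggrecan is the lectican of cartilage, while neurocan and brevican are lecticans of the nervous system.

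Exon counts per library came to between 43661243 and 48825574 with the YAP inhibitor and Activin and to 48309866 and 48904372 in GiWi. Replicate 3 of the YAP inhibitor with Activin stood apart: its chi-square per degree of freedom was 53.5 and 48.4 against replicates 1 and 2, which differed from each other by 2.13, and the GiWi pair differed by 5.89. Set against replicates 1 and 2, the median log2 difference in that library was -1.27 over 12 cardiomyocyte markers and -1.31 over 14 macrophage and blood markers. The cardiomyocyte markers, which check the labelled cell type, summed to 4963, 5023 and 2220 CPM (exon counts scaled to library size with TMM factors) with the YAP inhibitor and Activin, against 6003 and 5829 CPM in GiWi. Of the 12, 1 rose, 3 fell and 8 did not pass, while 30.2% of all tested genes were called higher and 26.9% lower. The order of the sums in replicates 1 and 2 rests on MYH6, an atrial myosin heavy chain named after its values were seen. Without it the sums were 4840, 4891 and 2171 CPM with the YAP inhibitor and Activin, against 4125 and 3974 CPM in GiWi. Markers of other cells moved with the protocol as well. The macrophage and blood markers summed to 577, 592 and 257 CPM, against 7.35 and 8.31 CPM in GiWi, where CD163 and C1QB were at 0. The 10 epithelial markers summed to 3123, 3251 and 3585 CPM, against 1862 and 2049 CPM in GiWi, and the 14 neural markers to 517, 522 and 381 CPM, against 326 and 328 CPM in GiWi. Most of these GiWi sums came from KRT8, at 1123 and 1216 CPM, and from NES, at 253 CPM in both libraries. Both genes were named after their values were seen, and KRT8 rose while NES fell. The median log2 fold change was 4.21 over the epithelial markers and 2.07 over the 12 neural markers tested. The 15 cartilage markers summed to 1697, 1673 and 1677 CPM, against 1844 and 1835 CPM in GiWi. The part of these cells in the results below was not tested, and in bulk RNA fewer cells of a type and less RNA per cell cannot be told apart. The labels do not say whether each library had its own culture; the p-values measure only how these libraries spread, which may be technical.

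Of the 10 genes, 6 rose with the YAP inhibitor and Activin relative to GiWi, HAS1 fell, and BCAN, HAS3 and HAPLN3 did not pass the test. The genes that rose were ACAN, HAPLN1, NCAN, CD44, VCAN and HAS2. All 10 passed the filter on low counts. In edgeR's quasi-likelihood test with Benjamini-Hochberg adjustment over all tested genes, 57.1% of 17634 genes were called at an adjusted p under 0.05, 30.2% higher and 26.9% lower. Higher calls were 52.9% of all calls with TMM scaling and 35.8% with scaling by library size alone. The median log2 fold change was 1.27 over the 10 genes and 0.01 over all tested genes. For the 6 genes that rose, each library of the YAP inhibitor and Activin lay above both GiWi libraries, as for 38.7% of tested genes. For HAS1 and HAPLN3 each lay below, as for 37.1% of tested genes, and the groups of 75.8% did not overlap in one direction or the other. The count of members that rose was 4 without GiWi replicate 1, when ACAN and HAPLN1 did not pass, and 3 without GiWi replicate 2, when HAS2 did not pass either; in those fits 33.7% and 32.8% of all tested genes were called.

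**Figure D1:**
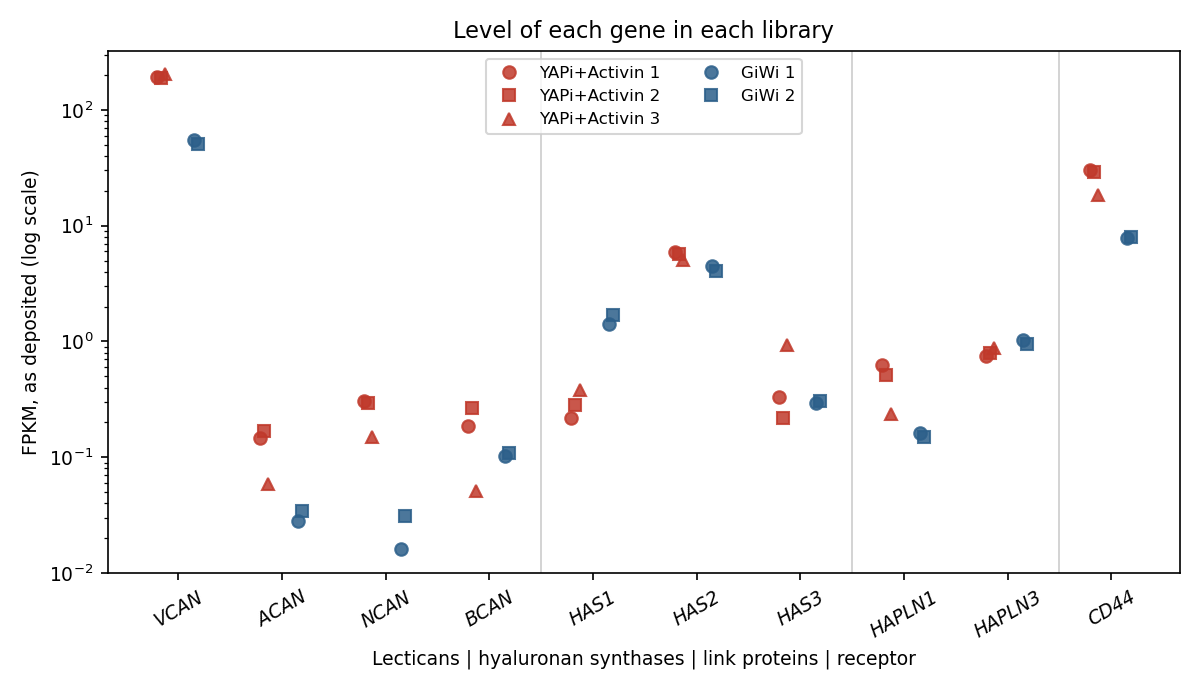
FPKM as deposited (log scale) of each gene in 3 libraries given YAP inhibitor and Activin (red, left of each gene) and the 2 GiWi libraries (blue, right). VCAN is the most abundant lectican in every library, HAS2 the most abundant synthase, and replicate 3 of the YAP inhibitor with Activin (triangles) lies below replicates 1 and 2 for ACAN, NCAN, BCAN, HAS2, HAPLN1 and CD44 and above them for VCAN, HAS1, HAS3 and HAPLN3.

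VCAN encodes versican, the lectican of developing heart and of many embryonic mesenchymes, and it held nearly all lectican transcripts in both groups. Per length, it measured 193, 189 and 202 FPKM with the YAP inhibitor and Activin, against 54.7 and 51.2 FPKM in GiWi. The YAP inhibitor and Activin values lay close together, replicate 3 included, and far above both GiWi values. By mean FPKM it ranked 250th of all listed genes with the YAP inhibitor and Activin and 964th in GiWi. Its TMM-scaled abundance was 2522, 2483 and 2668 CPM, against 639 and 624 CPM in GiWi, which is 4.05-fold higher (log2 fold change 2.02 ± 0.06 SE, edgeR adjusted p = 2.46e-05). Its share of the summed lectican FPKM was 99.7 ± 0.136% with the YAP inhibitor and Activin and 99.7 ± 0.0486% in GiWi (SD, n = 3 and n = 2), a difference smaller than the spread between libraries.

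The deposited tables also hold information on the versican isoform, because the transcript they list differs. The middle part of versican that carries chondroitin sulfate is encoded by exon 7, known as GAG-alpha, and exon 8, known as GAG-beta; V0 contains both and V1 only GAG-beta. The count table lists a transcript with both exons (length 12399) and the FPKM table one without exon 7 (length 9439), with the same hg19 ends. The exon present only in the count table's transcript spans chr5:83519349-83522309 of GRCh38 in GENCODE release 29, on the + strand, and has 2961 bases there, against 2960 by the lengths in the files, which were used here. The sequences below show how the 2 transcripts part after exon 6, from the GENCODE transcript sequences, with the first bases of the next exon in capitals.
VCAN exon 6 to exon 7, in the count table's transcript: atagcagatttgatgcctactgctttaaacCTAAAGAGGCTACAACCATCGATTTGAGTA
VCAN exon 6 to exon 8, in the FPKM table's transcript: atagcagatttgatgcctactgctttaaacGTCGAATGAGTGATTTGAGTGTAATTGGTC
The counts that fell in exon 7 were obtained as the deposited count minus the count implied by the FPKM value, its transcript length and the library total. The library totals came from 163 to 193 genes a library that have the same transcript in both tables. These values come from the difference between the deposited tables and were not checked against reads. Coverage of exon 7 alone does not give the share of each isoform.

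Exon 7 of VCAN held 10861, 9382 and 9799 counts with the YAP inhibitor and Activin, against 3083 and 3100 counts in GiWi, each uncertain by at most 8.41 counts from the library total. Coverage per base of exon 7 was 32.1, 31.1 and 31.9% of that of the transcript without it, against 31.5 and 33.9% in GiWi. The values of the groups overlapped, with means of 31.7 ± 0.536% with the YAP inhibitor and Activin and 32.7 ± 1.67% in GiWi (SD, n = 3 and n = 2). With 3 libraries against 2, an exact permutation test cannot go below p = 0.1, so the difference was not tested here or for CD44. The difference of -1.01 percentage points became 0.17 without GiWi replicate 2. Taken per length of exon 7 alone, VCAN measured 62.0, 58.7 and 64.5 FPKM with the YAP inhibitor and Activin, against 17.2 and 17.3 FPKM in GiWi.

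**Figure D2:**
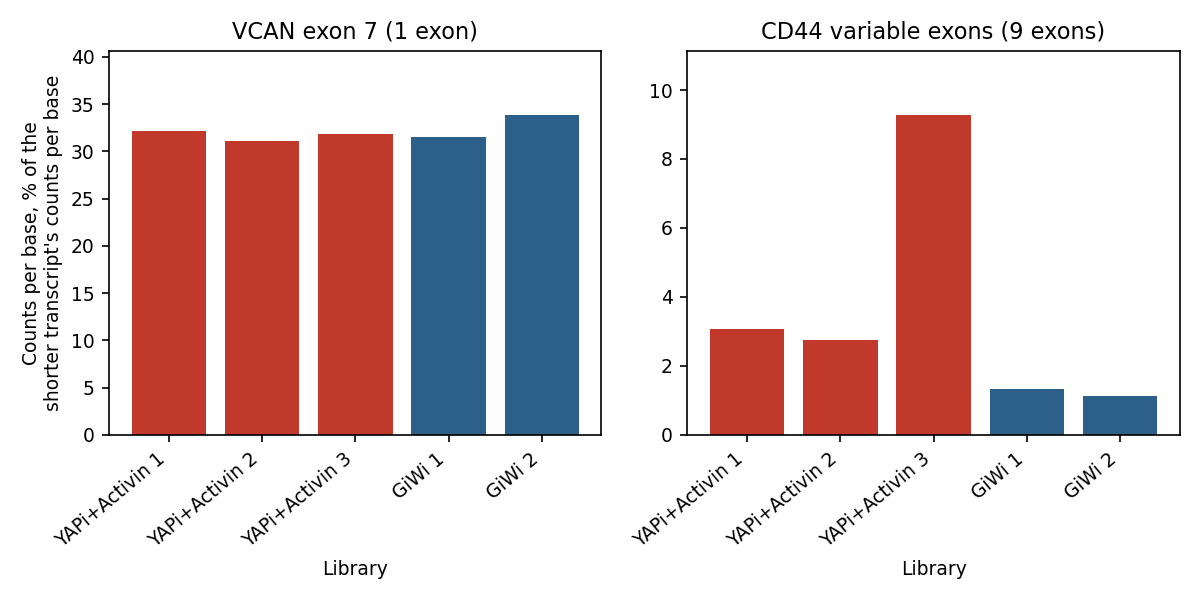
Counts per base in the exons found only in the longer listed transcript, as a percentage of counts per base of the shorter transcript, in each library (bars; red, YAP inhibitor with Activin; blue, GiWi), for VCAN exon 7 (left) and the 9 variable exons of CD44 (right). The VCAN values run from 31.1 to 33.9% with no separation of the groups, and the CD44 value of replicate 3 of the YAP inhibitor with Activin is 9.28%, against 3.07% or less in the other libraries.

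The other lecticans were rare, at 0.305 FPKM or less in every library. ACAN, aggrecan, had 77.5, 81 and 26.5 exon counts with the YAP inhibitor and Activin, against 15 and 18 in GiWi, or 1.66, 1.90 and 0.643 CPM against 0.280 and 0.348 CPM in GiWi. It was higher in all 3 libraries, least so in replicate 3, relative to GiWi (log2 fold change 2.15 ± 0.53, edgeR adjusted p = 0.0175). It did not pass when GiWi replicate 1 or 2 was left out (edgeR adjusted p = 0.118 and 0.0956) nor by limma on log2 FPKM with a pseudocount of 1 or of 0.1 (adjusted p = 0.0892 and 0.0550). Among the cartilage markers beside it, 5 rose, 3 fell and 6 did not pass, while 30.2% of all tested genes were called higher and 26.9% lower. Those that rose were COL9A1, COL11A1, MATN3, CILP and EPYC, and those that fell were SOX6, COL2A1 and COL9A3. SOX9, the transcription factor of chondrocytes, measured 26.3 ± 1.11 CPM with the YAP inhibitor and Activin, against 26.7 ± 2.35 CPM in GiWi. COL2A1, the type II collagen chain of cartilage, fell to 44.3 ± 10.5 CPM, against 370.5 ± 4.51 CPM in GiWi (log2 fold change -3.06 ± 0.19).

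NCAN, neurocan, had the largest fold change of the 10 genes. It had 115.5, 102.5 and 49.5 exon counts with the YAP inhibitor and Activin, against 6 and 12 in GiWi. In CPM these were 2.47, 2.40 and 1.24, against 0.112 and 0.232 in GiWi (log2 fold change 3.55 ± 0.50, edgeR adjusted p = 0.00231). The log2 fold change was 3.11 without GiWi replicate 1 and 4.15 without GiWi replicate 2. The groups did not overlap, and replicate 3 was the lowest of its group. BCAN, brevican, had 0.808, 1.18 and 0.223 CPM, against 0.411 and 0.425 CPM in GiWi. Replicates 1 and 2 were above both GiWi libraries and replicate 3 below them, and the difference did not pass (log2 fold change 0.82 ± 0.65, edgeR adjusted p = 0.323). Without replicate 3 it passed (1.23 ± 0.27, edgeR adjusted p = 3.58e-04), in a fit that called 74.9% of all tested genes. Of the neural markers beside these genes, 9 rose and 2 fell among 12 tested (SOX1 and OLIG2 had too few counts). Over all tested genes, 30.2% were called higher and 26.9% lower. The neural list lay at a median of -0.57 log2 in replicate 3 relative to replicates 1 and 2.

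The hyaluronan synthases differed in composition. Their summed level per length, in FPKM as deposited and so without TMM scaling, was 6.46, 6.25 and 6.32 FPKM with the YAP inhibitor and Activin, against 6.17 and 6.04 FPKM in GiWi. On the TMM scale, not per length, the sum was 26.6, 25.8 and 26.8 CPM with the YAP inhibitor and Activin, against 21.2 and 21.1 CPM in GiWi, higher in all 3 libraries. HAS2, the main synthase of the embryonic heart, measured 24.3, 23.9 and 20.8 CPM, against 16.4 and 15.4 CPM in GiWi. All YAP inhibitor and Activin libraries lay above GiWi, by 1.45-fold (log2 fold change 0.53 ± 0.09, edgeR adjusted p = 0.00467), a call lost without GiWi replicate 2 (edgeR adjusted p = 0.0523). HAS1 measured 0.595, 0.752 and 1.01 CPM, against 3.36 and 4.17 CPM in GiWi. It was lower in every library of the YAP inhibitor with Activin, which gives a log2 fold change of -2.26 ± 0.26 (edgeR adjusted p = 0.00116). HAS1 made up 3.36, 4.51 and 6.01% of the summed synthase FPKM, against 23.0 and 28.1% in GiWi, and HAS2 made up 91.5, 92.0 and 79.4%, against 72.3 and 66.9% in GiWi.

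**Figure D3:**
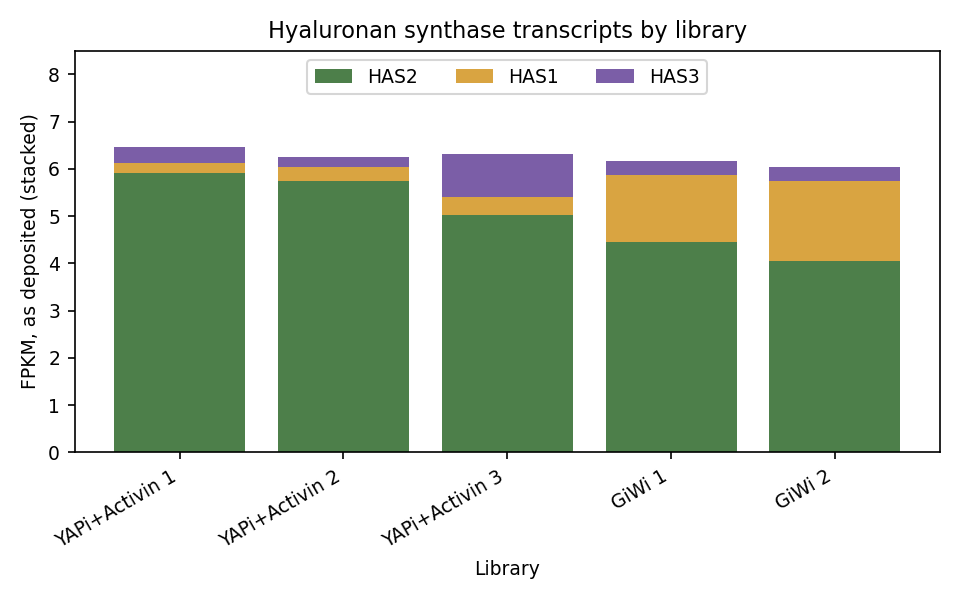
FPKM as deposited of HAS2, HAS1 and HAS3, stacked, in 3 libraries given YAP inhibitor and Activin (left) and the 2 GiWi libraries (right). The totals run from 6.04 to 6.46 FPKM, with a larger HAS1 part in GiWi and a larger HAS3 part in replicate 3 of the YAP inhibitor with Activin.

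HAS3 rested on a single library. It measured 1.74, 1.18 and 4.95 CPM with the YAP inhibitor and Activin, against 1.40 and 1.51 CPM in GiWi. Replicate 3 was far above all others, replicates 1 and 2 lay on either side of the GiWi values, and the test did not pass (log2 fold change 0.85 ± 0.63, edgeR adjusted p = 0.294). Without replicate 3 the log2 fold change was 0.02. The 10 epithelial markers lay at a median of 0.13 log2 in replicate 3 relative to replicates 1 and 2, 3 of them below. They ran from -0.90 for EPCAM to 1.81 for GRHL2, and a link to HAS3 was not tested. HAS2-AS1, an antisense RNA that overlaps HAS2, is outside the 10 genes and was looked at because of the overlap. It had 45, 40 and 40 exon counts, against 17 and 17.5 in GiWi (log2 fold change 1.53 ± 0.22, edgeR adjusted p = 0.00276). The kit was stranded per the labels, but no source used here gives the strand setting of the counting, so reads of HAS2 and its antisense partner may not be fully separated.

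The link protein genes each lie next to a lectican gene. In hg19, VCAN spans chr5:82767493-82878122 and HAPLN1 chr5:82934017-83016896, on opposite strands and 55.9 kb apart. ACAN spans chr15:89346674-89418585 and HAPLN3 chr15:89420516-89438857, 1.93 kb apart and also on opposite strands. NCAN lies 3.39 kb from HAPLN4, and BCAN 16.2 kb from HAPLN2, and no other listed gene lies between the members of any of these pairs. Neighbours did not always move alike. VCAN and HAPLN1 were both higher with the YAP inhibitor and Activin, ACAN was higher and HAPLN3 did not pass, and NCAN was higher while HAPLN4 fell.

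HAPLN1, the link protein of cartilage and of the cardiac cushions in mouse, measured 3.70, 3.06 and 1.38 CPM with the YAP inhibitor and Activin, against 0.858 and 0.812 CPM in GiWi. All 3 libraries were above GiWi, with replicate 3 nearest to it (log2 fold change 1.70 ± 0.45, edgeR adjusted p = 0.0215). The edgeR adjusted p was 0.116 and 0.128 without GiWi replicate 1 or 2, and 0.0512 and 0.0579 when YAP inhibitor and Activin replicate 1 or 2 was left out. It was 0.0537 with those replicates summed, and 0.0655 by limma on log2(FPKM + 1). Within these libraries VCAN and HAPLN1 parted in replicate 3, where HAPLN1 lay at a log2 difference of -1.29 from replicates 1 and 2 and VCAN at 0.09. The ratio of VCAN to HAPLN1 FPKM was 308, 368 and 857, against 340 and 339 in GiWi.

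HAPLN3, a widely expressed link protein, measured 1.87, 2.05 and 2.20 CPM, against 2.28 and 2.20 CPM in GiWi. The highest YAP inhibitor and Activin value and the lower GiWi value were nearly equal, and the difference was -0.14 ± 0.16 on the log2 scale (edgeR adjusted p = 0.493). HAPLN1 made up 45.3, 39.0 and 21.3% of the summed FPKM of HAPLN1 and HAPLN3, against 13.6 and 13.8% in GiWi. The other link proteins, HAPLN2 and HAPLN4, are known from the nervous system. HAPLN4 fell to 3.70, 3.36 and 3.71 CPM with the YAP inhibitor and Activin, against 6.79 and 7.11 CPM in GiWi (log2 fold change -0.95 ± 0.11, edgeR adjusted p = 0.00125). HAPLN2 had 1 to 6 exon counts in each library and was not tested.

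**Figure D4:**
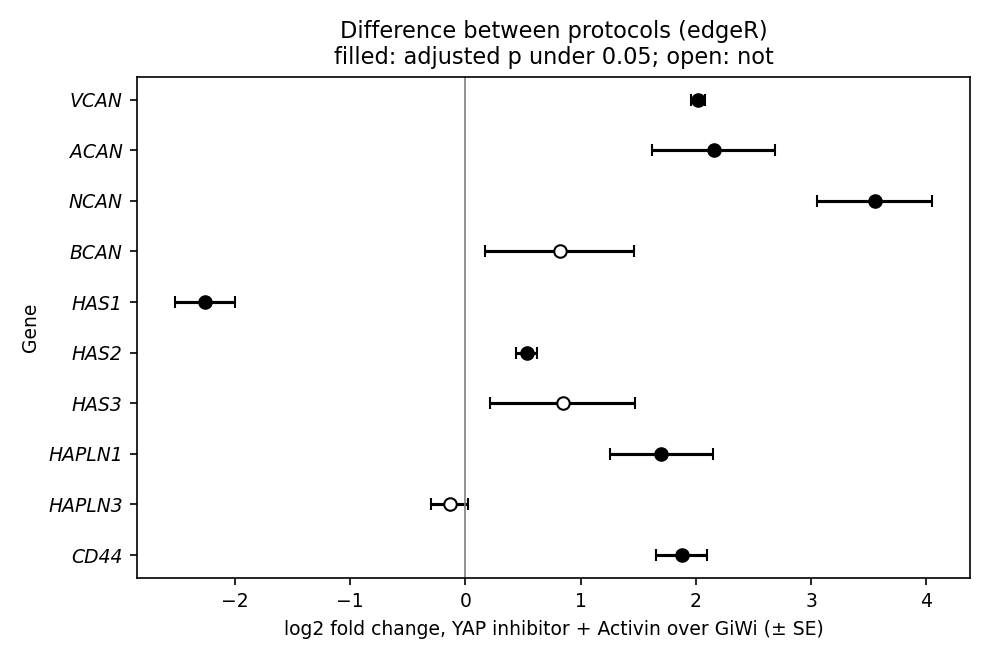
log2 fold change of each gene, YAP inhibitor with Activin over GiWi, with SE from edgeR (points and bars; filled where the adjusted p is under 0.05). NCAN lies highest at 3.55 and HAS1 lowest at -2.26, and the widest errors belong to BCAN and HAS3, which did not pass.

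CD44, the main cell-surface receptor of hyaluronan, was the second most abundant of the 10 genes in every library. It measured 30.1, 29.4 and 18.6 FPKM with the YAP inhibitor and Activin, against 7.78 and 7.97 FPKM in GiWi. In TMM-scaled CPM these were 175, 172 and 110.5, against 40.3 and 42.7 in GiWi, which is 3.67-fold higher (log2 fold change 1.88 ± 0.22, edgeR adjusted p = 0.00126). All YAP inhibitor and Activin libraries were above GiWi, and replicate 3 was the lowest of them. Macrophages also express CD44. All 14 macrophage and blood markers rose, beside 30.2% of all tested genes called higher, and they were lowest in replicate 3 within their group as well. So were other lists: all 12 cardiomyocyte markers and 11 of 12 tested neural markers lay below the mean of replicates 1 and 2 there. A link of CD44 to any of these cells was not tested.

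CD44 is spliced into a standard form and into variant forms that hold some of a block of variable exons, which are typical of epithelia. The count table lists a transcript with 9 variable exons (length 5712) and the FPKM table the standard transcript (length 4578), with the same hg19 ends. The variable exons hold 1143 bases between 35196746 and 35211449 of chromosome 11 in GRCh38, + strand, by GENCODE release 29, against 1134 by the lengths in the files, which were used here. The sequences below show the end of exon 5 joined to the first variable exon and, in the standard form, to the next constant exon, with the bases of the joined exon in capitals.
CD44 exon 5 to exon 6, in the count table's transcript: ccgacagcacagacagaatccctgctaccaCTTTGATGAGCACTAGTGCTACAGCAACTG
CD44 exon 5 to exon 15, in the FPKM table's transcript: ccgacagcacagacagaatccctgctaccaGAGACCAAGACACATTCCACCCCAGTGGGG
Few counts fell in the variable exons in any library. They numbered 62.1, 49.4 and 100.4 with the YAP inhibitor and Activin, against 7.02 and 6.06 in GiWi. These counts were obtained as for VCAN and likewise were not checked against reads.

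Nearly all CD44 counts lay outside the variable exons in both groups. Variable exons took 0.755% (exact 95% binomial interval 0.579 to 0.966%), 0.675% (0.496 to 0.885%) and 2.25% (1.82 to 2.72%) of CD44 counts in replicates 1, 2 and 3 of the YAP inhibitor with Activin. In GiWi the shares were 0.325% (0.130 to 0.667%) and 0.274% (0.0997 to 0.590%). Intervals cover counting error only. Coverage per base was 3.07, 2.74 and 9.28% of that of the standard transcript, against 1.32 and 1.11% in GiWi. All 3 libraries were above GiWi, with replicate 3, which had the least CD44 of its group, far above the rest. Means were 5.03 ± 3.68% with the YAP inhibitor and Activin and 1.21 ± 0.146% in GiWi (SD, n = 3 and n = 2), and the difference of 3.82 percentage points was 1.69 without replicate 3. ESRP1, a splicing factor of epithelial cells that promotes inclusion of these exons, measured 19.6, 19.4 and 23.7 CPM, against 2.16 and 1.78 CPM in GiWi. ESRP1 is named after its values were seen, and a link between it and the exon coverage was not tested. It belongs to the epithelial markers, all 10 of which rose, while 30.2% of all tested genes were called higher.

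Genes that build, bind or cut this matrix were listed by function. The proteases that cleave lecticans were lower with the YAP inhibitor and Activin. Of 7 ADAMTS genes, 6 fell, none rose and ADAMTS1 did not pass, beside 26.9% of all tested genes called lower, with a median log2 fold change of -0.96. ADAMTS9, a versican-cleaving protease of the developing heart, fell to 72.6, 74.2 and 87.6 CPM, against 279 and 281 CPM in GiWi (log2 fold change -1.84 ± 0.09, edgeR adjusted p = 8.86e-05). ADAMTS8 fell to 10.5 ± 1.62 CPM, against 72.4 ± 2.91 CPM in GiWi (-2.79 ± 0.13). ADAMTS5, the main aggrecanase of mouse cartilage, fell to 26.2 ± 0.849 CPM, against 51.0 ± 5.46 CPM in GiWi (-0.96 ± 0.08), and ADAMTS15 to 39.9 ± 2.60 CPM, against 74.0 ± 3.58 CPM in GiWi (-0.89 ± 0.07). ADAMTS1, named as the member that did not pass, measured 121, 121 and 154 CPM, against 155 and 161 CPM in GiWi.

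**Figure D5:**
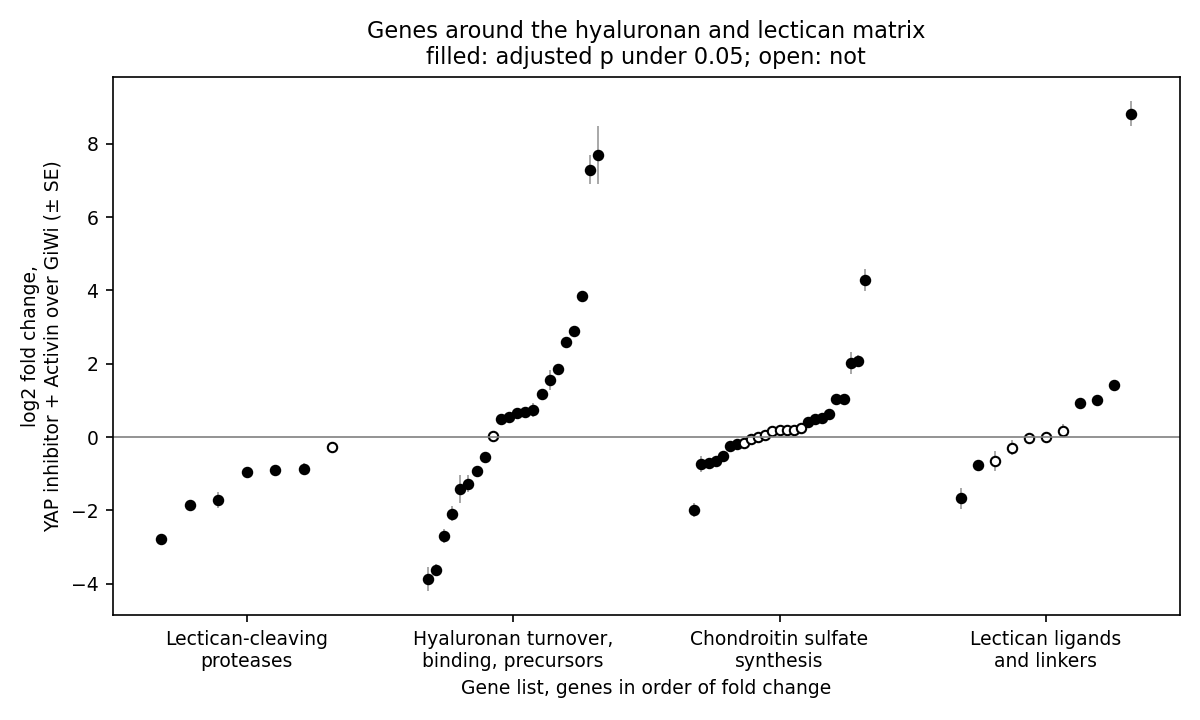
log2 fold change of every tested gene of 4 lists, YAP inhibitor with Activin over GiWi, in order within each list, with SE from edgeR (filled where the adjusted p is under 0.05). All 7 lectican-cleaving proteases lie below 0, and the other lists hold genes on both sides.

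Of 22 tested genes of hyaluronan turnover, binding and precursor supply, 13 rose, 8 fell and 1 did not pass. Over all tested genes, 30.2% were called higher and 26.9% lower. The median log2 fold change of the list was 0.60. Without GiWi replicate 2, 5 fell. GFPT2, an enzyme of the hexosamine pathway that feeds hyaluronan synthesis, rose to 59.8, 62.5 and 62.0 CPM, against 9.85 and 10.6 CPM in GiWi (log2 fold change 2.58 ± 0.07, edgeR adjusted p = 2.16e-05). PTX3, pentraxin 3, which helps to cross-link hyaluronan, rose to 65.8 ± 4.29 CPM, against 4.53 ± 0.452 CPM in GiWi (3.86 ± 0.11). The inter-alpha-trypsin inhibitor heavy chain genes, of which only some encode chains that are attached to hyaluronan, split. ITIH5 rose to 286 ± 32.1 CPM, against 38.5 ± 0.203 CPM in GiWi (2.89 ± 0.11). In contrast, ITIH1, ITIH2, ITIH3 and ITIH4 fell, by 1.41 to 3.87 on the log2 scale. These 4 are named as the rest of the family listed, after their values were seen. AMBP, which encodes bikunin, the light chain of inter-alpha-trypsin inhibitor, fell to 1.12 ± 0.167 CPM, against 13.9 ± 1.67 CPM in GiWi (-3.63 ± 0.16). Among the other hyaluronan receptors, named after their values were seen, STAB1 measured 49.0, 47.6 and 17.0 CPM, against 0.168 and 0.193 CPM in GiWi, and LYVE1 5.27, 5.59 and 3.76 CPM, against 0.0187 and 0.0387 CPM in GiWi; both rose, and both are also expressed by macrophages. HMMR, likewise named after its values were seen, a receptor tied to the mitotic spindle, fell to 7.69 ± 0.357 CPM, against 14.7 ± 0.109 CPM in GiWi (-0.93 ± 0.08), beside MKI67, a marker of proliferation, at 45.3 ± 3.38 CPM with the YAP inhibitor and Activin, against 127 ± 1.66 CPM in GiWi.

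Genes of chondroitin sulfate synthesis, which make the chains that lecticans carry, moved in both directions. Of 25 tested, 9 rose, 7 fell and 9 did not pass, shares near the 30.2% higher and 26.9% lower over all tested genes, with a median log2 fold change of 0.19; those that fell numbered 3 and 4 without GiWi replicate 1 or 2, 4 without replicate 2 of the other group, and 4 with replicates 1 and 2 of that group summed. PAPSS2, which makes the sulfate donor, rose to 90.2 ± 2.88 CPM, against 43.5 ± 2.14 CPM in GiWi (log2 fold change 1.05 ± 0.06, edgeR adjusted p = 1.51e-04). CHPF, the chondroitin polymerizing factor, rose to 727 ± 49.6 CPM, against 356 ± 23.2 CPM in GiWi (1.03 ± 0.08). The sulfotransferase genes CHST13 and CHST7 rose to 4.71 ± 1.06 and 8.35 ± 0.746 CPM, against 0.238 ± 0.0193 and 1.96 ± 0.287 CPM in GiWi.

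Of 11 tested genes whose products bind or link lecticans, 4 rose, 2 fell and 5 did not pass, with a median log2 fold change of 0.02. Over all tested genes, 30.2% were called higher and 26.9% lower. FBLN1, fibulin 1, a ligand of versican and aggrecan, rose to 487 ± 12.9 CPM, against 243 ± 11.1 CPM in GiWi (log2 fold change 1.00 ± 0.06, edgeR adjusted p = 1.43e-04). FBN1, fibrillin 1, rose to 1184 ± 39.0 CPM, against 623 ± 0.530 CPM in GiWi (0.93 ± 0.05), and FBN2, fibrillin 2, fell to 339 ± 22.0 CPM, against 577 ± 4.62 CPM in GiWi (-0.77 ± 0.07). COMP, a pentameric matrix protein of cartilage and tendon, rose to 348 ± 91.8 CPM, against 0.768 ± 0.0481 CPM in GiWi (8.82 ± 0.34). DCN, decorin, a small proteoglycan of fibroblasts that is not a lectican, rose to 3063 ± 111 CPM with the YAP inhibitor and Activin, against 1088 ± 65.1 CPM in GiWi. TNNT2, cardiac troponin T, measured 635 ± 277 CPM with the YAP inhibitor and Activin, against 898 ± 10.1 CPM in GiWi, and did not pass. Of the 10 fibroblast and mesenchyme markers, 6 rose, DCN among them, and 3 fell. Those that fell were PDGFRA, TCF21 and POSTN, with log2 fold changes of -1.76, -0.34 and -1.25.

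Promoter windows of the RefSeq table, from 250 bases before to 50 after the annotated start in GRCh38.p14, were matched for 8 of the 10 genes. Short motifs were searched by their letters on both strands. For the TEAD factors, partners of YAP, the letters were CATTCC. For TCF and LEF factors of Wnt signalling they were CTTTGAT. For SMAD factors, which act below Activin, they were CAGACA, and the search for a TATA box used TATAAA. None of the 4 occurred in the windows matched, which leave out NCAN and HAS2, while in that order 14, 2.62, 16.9 and 11.5% of 35116 windows held them. This says only that these letters are not in these windows.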

How the data were processed

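Per the labels' protocols, a stranded mRNA kit was used. The tools STAR 2.5.1, edgeR 3.16.1, FastQC 0.11.5 and HOMER, and the build hg19, appear in the submitters' processing notes with no role or order. The exon counts deposited by the authors are treated as an expected count, since 34.6% of values are not whole, and testing used rounded values. FPKM values as deposited by the authors fill the other table. Each table lists 27139 genes and 3 emptied lines, and 1 transcript per gene.

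All 5 libraries entered a quasi-likelihood fit in edgeR 4.0.16 under R 4.3.3, with TMM factors. Genes were kept by filterByExpr with a count of at least 10 and a total of at least 15, and p-values were adjusted by Benjamini-Hochberg over the 17634 genes kept, with calls at 0.05. SE is the log2 fold change divided by the square root of F. CPM are TMM-scaled. It was tested on simulated data. The members, lists and rules were chosen with earlier results of these data known. All 10 members were named, with HAPLN2, HAPLN4, up to 4 called genes of each of 4 pathway lists (smallest p, groups not overlapping, mean of at least 1 CPM in the higher group) the markers SOX9, COL2A1, TNNT2, DCN and MKI67, and defining markers at 0; other genes were picked after their values were seen. The exon coverage of VCAN and CD44 was added after seeing the files, with library totals from genes of at least 20000 counts and the same transcript in both tables. Alternatives were RLE factors, library size alone, other filters, DESeq2 1.42.0, limma 3.58.1 (voom with sample weights; log2 FPKM with pseudocounts 1 and 0.1), robust edgeR, libraries left out or summed, and the replicate number as a block.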

Additional observations from a re-analysis of the deposited data

How the results depend on the processing

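Directions held for the 10 genes under every alternative but HAS3, whose log2 fold change was -0.014 by limma-voom with sample weights; the cause was not tested. VCAN, NCAN, HAS1 and CD44 kept direction and call in all 16 alternatives, with log2 fold changes of 1.82 to 2.04, 0.29 to 4.15, -2.48 to -0.98 and 1.57 to 2.06; the smallest size came from library size alone for VCAN and from log2(FPKM + 1) for the others. BCAN, not tested under the 1 CPM filter, passed also by limma-voom with sample weights (adjusted p = 0.0201), which called 73.3% of all tested genes. Scaling by library size alone moved the median of all tested genes from 0.01 to -0.18. In that fit 4 lectican ligands fell, while 7036 of 17634 tested genes were called lower. With replicates 1 and 2 of the YAP inhibitor and Activin summed, 4 chondroitin sulfate genes fell, while 3540 of 17454 tested genes were called lower. Leaving out each library in turn, genes called numbered 3301 to 6721 higher and 2608 to 6394 lower, members that rose 3 to 7, chondroitin sulfate genes that fell 3 to 8, and hyaluronan genes that fell 5 to 8; without a GiWi library, the lone one left is assumed to vary like the other group. With the replicate number as a block, 7 members rose and HAS1 fell, BCAN being added (log2 fold change 1.23), while 77% of all tested genes were called. Replicate 3 then has no GiWi partner, and the block left the calls of all other members as they were. The labels do not say that numbers pair libraries, and deviations of same-numbered libraries correlated at 0.13 and -0.09. ACAN, NCAN, BCAN, HAS1, HAS3, HAPLN1 and HAPLN3 are limited by depth, with 6 to 215.5 exon counts a library.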
